A study of Rattus norvegicus with 16 samples.

Results

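The 7 circadian clock genes Bmal1 (also called Arntl), Per2, Nr1d1, Nr1d2, Dbp, Bhlhe40 and Bhlhe41 were followed across the thoracic aorta of ageing rats. They were taken by gene symbol from the platform annotation, which gave them 10 of the 8799 probe sets on the array. Bmal1, Dbp and Nr1d1 had a pair of probe sets each, and the other genes had 1 each. All 10 were among the 5251 probe sets bright enough to be tested.

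The study compared rats (Rattus norvegicus) of 3, 6, 15 and 28 months of age, with 4 animals and 4 Affymetrix rat expression arrays per age. A piece of the descending thoracic aorta was excised from each animal, in random order, and total RNA was labelled with biotin. No treatment or genetic change is given in the labels, and neither are strain, sex and the hour of day at which tissue was collected. The array records name 16 different animals, so replicates were separate rats. Smooth muscle transcripts were bright on every array: Myh11, smooth muscle myosin heavy chain, had signals of 16221 to 44411. Fat transcripts were bright too, with signals of 4128 to 72975 for Ucp1, which uncouples respiration in brown fat. In such bulk samples, fewer cells of a type and less RNA per cell cannot be told apart.

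The circadian clock is a feedback loop of transcription that runs in nearly every cell type, vessel wall cells and fat cells included. BMAL1 pairs with CLOCK, binds E-boxes in promoters and drives the genes of its own repressors, among them the Per and Cry genes, Nr1d1 and Nr1d2, Bhlhe40 and Bhlhe41, as well as the output gene Dbp. PER2 acts with the CRY proteins against BMAL1 and CLOCK, the products of Nr1d1 and Nr1d2 (REV-ERB alpha and beta) hold down Bmal1 through ROR elements, and DBP acts on D-boxes. In rodent tissues the transcript of Bmal1 peaks at about the time of day when those of Dbp and Nr1d1 are lowest.

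The promoters are shown because the proteins of the loop act on E-boxes, D-boxes and ROR elements, which were looked for in them. RefSeq promoter windows on the GRCr8 assembly, from 250 bases before to 50 bases after a gene's start, were found for all 7 genes, 8 windows in all, with a pair for Nr1d1. They were searched on both strands for the E-box CACGTG, its variant CACGTT, the D-boxes TTATGTAA and TTACGTAA and the ROR element TAGGTCA. The first line below is the whole window of Bmal1, and the others are the stretches around the matches in Per2, Nr1d1, Bhlhe40 and Bhlhe41. All are written from 5′ to 3′ along the gene, with the matched motif in capitals.
Bmal1, chr1:176766078-176766377, plus strand: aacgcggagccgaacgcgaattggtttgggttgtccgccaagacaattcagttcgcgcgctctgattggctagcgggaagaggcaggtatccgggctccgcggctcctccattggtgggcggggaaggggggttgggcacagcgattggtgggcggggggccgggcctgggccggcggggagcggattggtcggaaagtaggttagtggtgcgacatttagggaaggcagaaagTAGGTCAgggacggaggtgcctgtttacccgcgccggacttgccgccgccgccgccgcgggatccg
Per2 D-box, chr9:99497151-99497212, minus strand: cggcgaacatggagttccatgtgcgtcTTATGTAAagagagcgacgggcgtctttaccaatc
Per2 E-box variant, chr9:99497023-99497082, minus strand: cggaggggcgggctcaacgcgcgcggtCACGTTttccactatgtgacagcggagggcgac
Nr1d1 E-box, chr10:84229613-84229672, minus strand: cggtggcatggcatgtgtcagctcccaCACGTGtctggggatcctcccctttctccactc
Bhlhe40 E-box, chr4:143174203-143174262, plus strand: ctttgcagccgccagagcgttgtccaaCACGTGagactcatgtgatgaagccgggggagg
Bhlhe41 E-box, chr4:180569371-180569430, minus strand: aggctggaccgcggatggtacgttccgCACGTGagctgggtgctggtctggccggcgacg

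The ROR element of Bmal1 began 16 bases before the start. Per2 had a D-box 192 bases and an E-box variant 62 bases before its start. E-boxes began 191 bases before the start in the second window of Nr1d1, 220 bases before it in Bhlhe40 and 48 bases before it in Bhlhe41. The first window of Nr1d1 held the E-box variant on the opposite strand, 174 bases before the start. The windows of Dbp and Nr1d2 held none of these letters. Among all 33469 windows of the same length, 6.42% held CACGTG, 4.83% CACGTT, 0.893% TTATGTAA, 0.120% TTACGTAA and 2.63% TAGGTCA, and 14.1% held at least 1 of the 5, as did 6 of the 8 windows of the clock genes. A match is a description of the sequence and not a measured binding site.

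The values below are the deposited signals, on a linear scale, with replicates 1 to 4 in order, and means are of log2(signal + 16) ± SD over 4 arrays. A gene with a pair of probe sets is given by the brighter one. Bmal1, the activator of the loop, had signals of 594, 326, 342 and 604 at 3 months, 426, 72, 540 and 817 at 6 months, 410, 370, 1048 and 1038 at 15 months, and 466, 870, 611 and 725 at 28 months. Replicate 2 at 6 months was far below all other arrays, and replicates 3 and 4 at 15 months were the highest. The ages overlapped, and their means were 8.86 ± 0.47, 8.51 ± 1.43, 9.36 ± 0.80 and 9.38 ± 0.37. On the dimmer probe set of Bmal1, replicates 3 and 4 at 15 months had signals of 438 and 712, against 136 and 171 for replicates 1 and 2 of that age. Replicate 2 at 6 months had a signal of 152 there, above the lowest array and close to signals of 165, 171 and 172, so it did not stand apart on that probe set.

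Dbp, the output transcription factor, had signals of 672, 1201, 1431 and 448 at 3 months, 945, 1550, 726 and 557 at 6 months, 910, 702, 108 and 148 at 15 months, and 656, 344, 746 and 439 at 28 months. It was lowest on the same pair of 15-month arrays on which Bmal1 was highest. On these brighter probe sets it was highest on the 6-month array on which Bmal1 was lowest, but on the dimmer ones Dbp was highest on replicate 3 at 3 months (711, with 636 on replicate 2 at 6 months), and Bmal1 was lowest on replicate 1 at 15 months. The means at the 4 ages were 9.76 ± 0.76, 9.80 ± 0.62, 8.41 ± 1.47 and 9.07 ± 0.50, and all ages overlapped. Its dimmer probe set had signals of 59 and 121 on the low pair at 15 months, against 321 and 203 on replicates 1 and 2.

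Nr1d1, which encodes REV-ERB alpha, varied less. Its signals were 680, 1313, 812 and 798 at 3 months, 846, 1399, 647 and 1206 at 6 months, 1108, 678, 699 and 522 at 15 months, and 792, 700, 885 and 948 at 28 months. The highest was replicate 2 at 6 months, as for Dbp, and the lowest replicate 4 at 15 months. The means were 9.80 ± 0.40, 9.96 ± 0.49, 9.53 ± 0.44 and 9.72 ± 0.19.

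Nr1d2, which encodes REV-ERB beta, had signals of 312, 305, 454 and 245 at 3 months, 391, 501, 393 and 447 at 6 months, 380, 412, 208 and 284 at 15 months, and 555, 372, 364 and 384 at 28 months. All but replicate 1 at 28 months lay close together at that age. The means were 8.40 ± 0.35, 8.80 ± 0.16, 8.35 ± 0.42 and 8.74 ± 0.28.

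Per2, a repressor of the loop, had signals of 386, 612, 483 and 1095 at 3 months, 297, 189, 488 and 385 at 6 months, 219, 336, 437 and 864 at 15 months, and 761, 599, 518 and 450 at 28 months. The 6-month arrays lay lowest on average, but replicate 3 of that age reached the range of the 3-month arrays. The means were 9.26 ± 0.63, 8.40 ± 0.56, 8.74 ± 0.80 and 9.20 ± 0.32.

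Bhlhe40 and Bhlhe41 encode DEC1 and DEC2, repressors that bind E-boxes. Bhlhe40 had signals of 555, 434, 326 and 303 at 3 months, 859, 444, 457 and 360 at 6 months, 549, 316, 295 and 269 at 15 months, and 409, 320, 227 and 356 at 28 months, with means of 8.68 ± 0.39, 9.02 ± 0.53, 8.49 ± 0.44 and 8.40 ± 0.34. Replicate 1 was the highest at every age. Bhlhe41 had signals of 233, 214, 206 and 204 at 3 months, 216, 212, 135 and 304 at 6 months, 238, 187, 163 and 353 at 15 months, and 378, 273, 438 and 311 at 28 months. It was the one gene of the 7 whose 28-month arrays all lay above its 3-month arrays, as those of 10.4% of all probe sets tested did. Its means were 7.84 ± 0.08, 7.81 ± 0.45, 7.92 ± 0.46 and 8.49 ± 0.29.

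**Figure D1:**
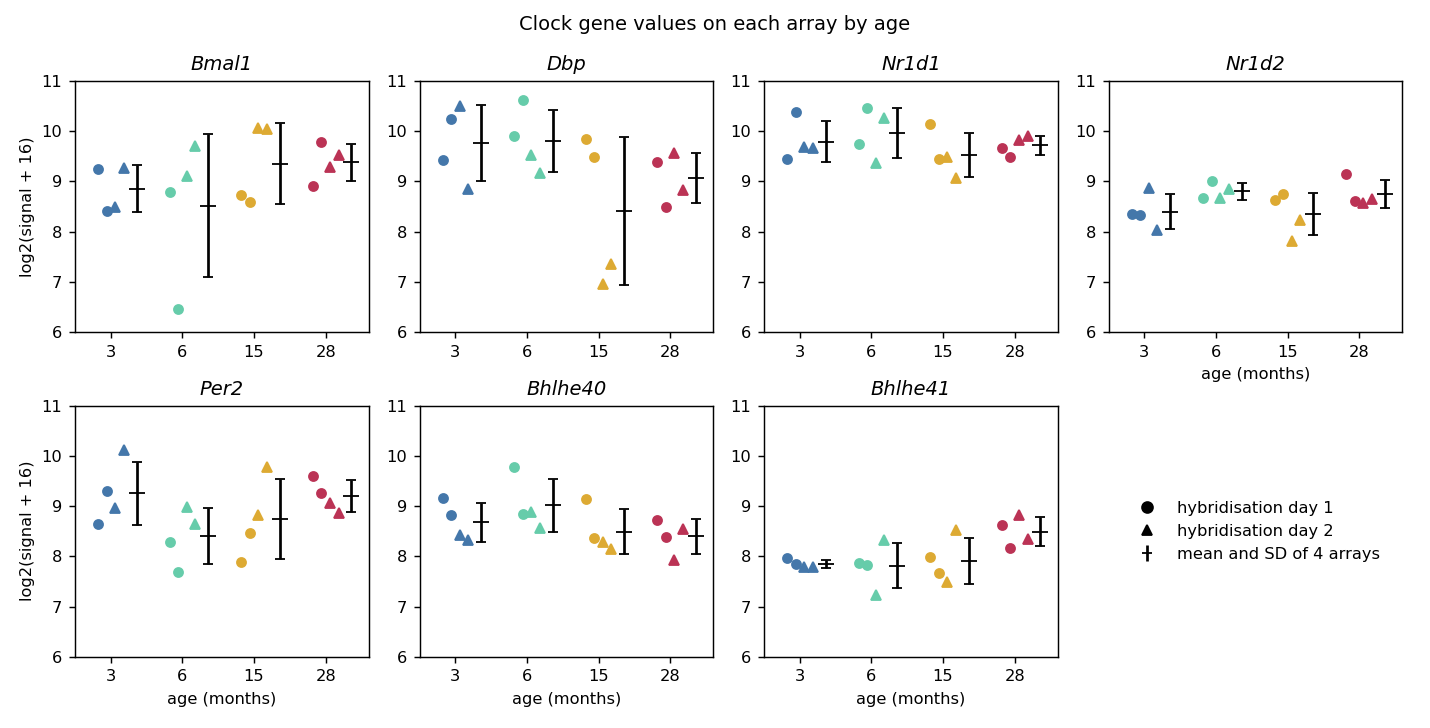
Values of the 7 clock genes on each of 16 arrays, as log2(signal + 16), by age in months; circles are hybridisation day 1, triangles day 2, and bars the mean and SD of 4 arrays. Bmal1 spreads most at 6 and 15 months and Dbp at 15 months. The 28-month arrays of Bhlhe41 lie above its 3-month arrays, as do those of 10.4% of all probe sets tested.

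The genes differed in how far their values spread over the 16 arrays. On the log2(signal + 16) scale the highest array was 12.6-fold above the lowest for Dbp, 12.2-fold for Bmal1 and 5.42-fold for Per2. The range of Bmal1 rested on replicate 2 at 6 months: without that array it was 3.11-fold, and on the dimmer probe set of Bmal1 it was 4.8-fold over all arrays. That of Dbp was 9.54-fold without its lowest array and 9.75-fold on its dimmer probe set. The range was 3.6-fold for Bhlhe40, 3.01-fold for Bhlhe41, 2.63-fold for Nr1d1 and 2.55-fold for Nr1d2. The SD of Dbp over all arrays was larger than that of 94.1% of the probe sets tested and that of Bmal1 larger than 89.7%. The same figure was 39.8% for Nr1d1 and 32.1% for Nr1d2. On the dimmer probe sets it was 90.6% for Dbp, 75.6% for Bmal1 and 49.6% for Nr1d1. For Bmal1 the SD within ages, 0.87, was as large as the largest difference between the means of any ages, also 0.87. Its SD at 6 months, the age of its lowest array, was 1.43, and that at 15 months 0.80. On its dimmer probe set these were 0.72 and 1.07. For Dbp the SD within ages was 0.92 and the largest difference 1.39.

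The study's question was how the aorta differs between ages. In the main fit, which leaves out the hybridisation run, no clock gene passed the threshold in any comparison of ages (limma, Benjamini-Hochberg adjusted p under 0.05 over all 5251 probe sets). Of the 10 probe sets, 0 passed at 28 against 3 months, where 1.31% of all probe sets did. Likewise 0 of 10 passed at 15 against 3 months, with 0.0952% of all probe sets, and at 6 against 3 months, with 0%. The shares of all probe sets were 0.0190% at 15 against 6 months, 0% at 28 against 15 months, 0.705% in the moderated F test over the 4 ages and 13.5% for the slope per month, and 0 of the 10 passed in each. At an unadjusted p under 0.05, 1 of the 10 lay in each of the 5 comparisons of ages and in the slope, and 0 in the F test. The same threshold took 22.5% of all probe sets at 28 against 3 months, 7.14% at 15 against 3 months, 2.86% at 6 against 3 months, 7.50% at 15 against 6 months, 3.52% at 28 against 15 months, 16% in the F test and 32.2% for the slope. The comparisons share arrays, and so are not independent of each other.

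Bhlhe41 came nearest to the threshold. It was 1.57-fold higher at 28 than at 3 months, with a log2 change of 0.65 (SE 0.27, 95% interval 0.07 to 1.23, limma adjusted p = 0.187, unadjusted p = 0.030). Its 4 arrays at 28 months lay above the 4 at 3 months, as did those of 10.4% of all probe sets tested. The log2 change at 28 against 15 months was 0.58 (SE 0.27, limma adjusted p = 0.965), and those at 6 and 15 against 3 months were −0.03 and 0.07. The slope of Bhlhe41 was 0.027 log2 units per month (limma adjusted p = 0.067). With the hybridisation run as a replicate block that slope passed, with an adjusted p of 0.048, as did 25.3% of all probe sets, and with array weights Bhlhe41 passed at 28 against 3 months (log2 change 0.77, limma adjusted p = 0.038), as did 14.4% of all probe sets. With array weights it was also the 1 clock probe set that passed in the F test, where 14% of all probe sets did, and for the slope, where 30.8% did.

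The other clock genes did not pass at 28 against 3 months, and the intervals of most were wide. Bmal1 had a log2 change of 0.52 (SE 0.55, 95% interval −0.64 to 1.69, limma adjusted p = 0.600) and 0.45 on its dimmer probe set. Dbp had a log2 change of −0.68 (SE 0.58, 95% interval −1.91 to 0.54, limma adjusted p = 0.503) and −0.95 on its dimmer probe set. These directions turned for both genes when the fat score, described below, was a covariate: the log2 change was then −0.37 for Bmal1 (limma adjusted p = 0.877) and 0.58 for Dbp (limma adjusted p = 0.669). Nr1d2 had a log2 change of 0.35 (SE 0.24, limma adjusted p = 0.400), and Bhlhe40 of −0.28 (SE 0.30, limma adjusted p = 0.604) or 0.04 with the fat score. Nr1d1 and Per2 had log2 changes of −0.08 (SE 0.27) and −0.06 (SE 0.39). The sign for Nr1d1 turned when replicate 2 of the 3-month (0.12) or of the 28-month rats (0.00072) was left out. That for Per2 turned when replicate 4 of either age was left out (0.23 and 0.053).

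At the intermediate ages the largest differences were those of Dbp and Per2. Dbp had a log2 change of −1.34 at 15 against 3 months (SE 0.58, limma adjusted p = 0.663) and of −1.39 at 15 against 6 months (SE 0.58, limma adjusted p = 0.599), where replicates 3 and 4 at 15 months were low and replicates 1 and 2 were not. Per2 had a log2 change of −0.86 at 6 against 3 months (SE 0.39, limma adjusted p = 1.000). By means, the ages ran 6, 3, 15 and 28 months from low to high for Bmal1, 15, 28, 3 and 6 months for Dbp and for Nr1d1, 15, 3, 28 and 6 months for Nr1d2, 6, 15, 28 and 3 months for Per2, 28, 15, 3 and 6 months for Bhlhe40, and 6, 3, 15 and 28 months for Bhlhe41. In the main fit, no pair of ages that was compared passed the threshold for any of the genes.

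**Figure D2:**
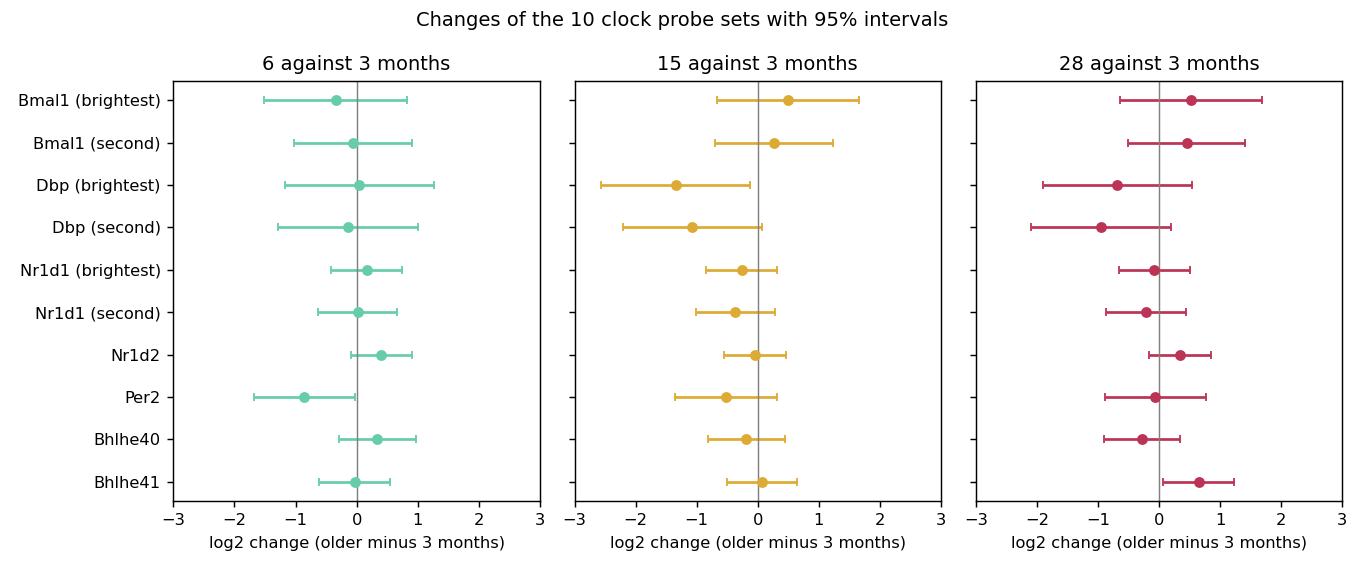
Log2 changes of the 10 clock probe sets at 6, 15 and 28 against 3 months, with 95% intervals from limma that are not adjusted for the number of probe sets. The intervals that leave out 0 are those of Per2 at 6 months, of the brighter Dbp probe set at 15 months and of Bhlhe41 at 28 months, and 0 of the 10 passed after adjustment in each.

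Although the genes did not pass by age, Dbp and Bmal1 opposed each other from animal to animal. Across the 16 arrays the log2 values of the 2 genes had a Pearson r of −0.789 (permutation p = 0.00029, adjusted p = 0.00609 over 21 pairs of clock genes) and a Spearman rho of −0.903 (permutation p = 1e-05, the smallest that the permutations can give, adjusted p = 0.00021). It was the one pair of 21 past the threshold by either measure, and 7 pairs had an unadjusted Pearson p under 0.05. Without the 2 arrays farthest from the median of Bmal1, r was −0.882, so the relation did not rest on them. With the age means removed r was −0.782 (permutation p = 0.00018, adjusted p = 0.00378). With those of age and of the hybridisation run removed, as a replicate block, it was −0.708. The permutations behind its adjusted p of 0.0195 shuffled the deviations freely over all 16 arrays. They took no account of the means removed, so that p is likely too small and is not read as passing.

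The relation was also seen on each hybridisation day, where 8 arrays stand behind each value. On day 1, which held replicates 1 and 2, r was −0.850 (exact permutation p = 0.0120, adjusted p = 0.0842), and on day 2, which held replicates 3 and 4, it was −0.913 (exact permutation p = 0.00149, adjusted p = 0.0313). Without the low pair of Dbp arrays at 15 months r was −0.810 (permutation adjusted p = 0.00042). It was −0.770 without replicate 4 at 15 months alone, where the adjusted p was 0.0878 (permutation test), and −0.891 without replicate 2 at 6 months. All 4 combinations of the probe sets of the 2 genes gave negative values, −0.789, −0.744, −0.791 and −0.688. Probe sets of the same gene had r of 0.706 for Bmal1, 0.867 for Dbp and 0.836 for Nr1d1. Among the 4356 other tested probe sets with 1 gene symbol, Dbp stood in place 5 from the bottom in its r with Bmal1, while Bmal1 stood in place 87 from the bottom in its r with Dbp.

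**Figure D3:**
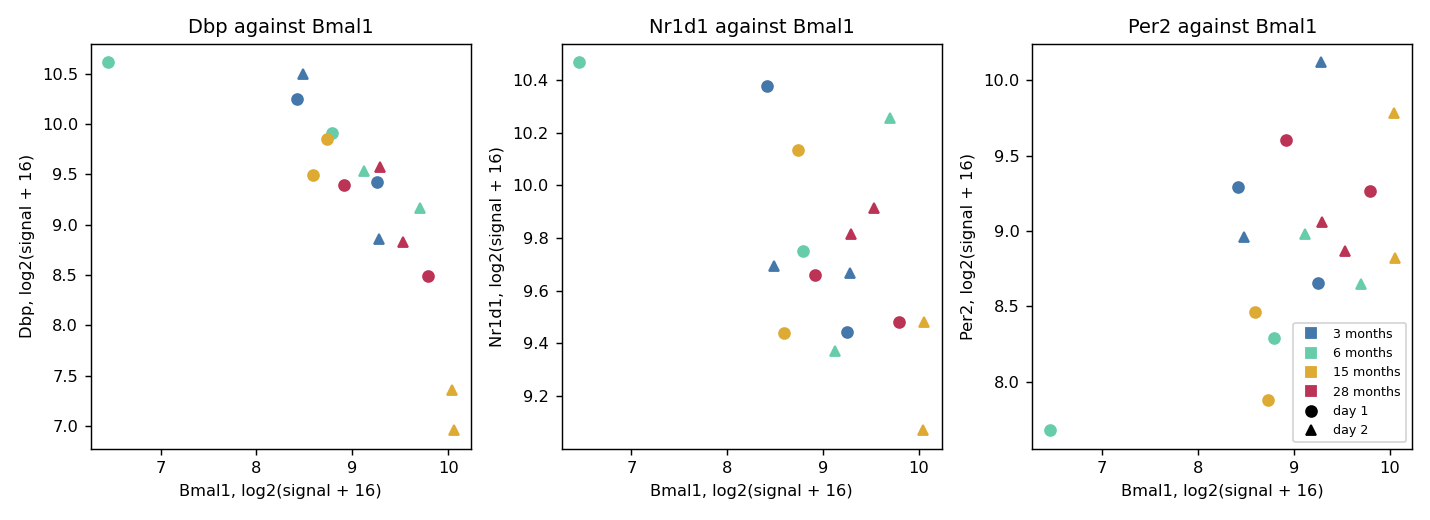
Dbp, Nr1d1 and Per2, each against Bmal1, as log2(signal + 16) on each of 16 arrays, with colours for age and circles and triangles for hybridisation days 1 and 2. Arrays with high Bmal1 have low Dbp, with a Pearson r of −0.789, while Nr1d1 and Per2 have r of −0.594 and 0.551 with Bmal1.

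The other pairs had weaker relations that did not pass over the 21 pairs. Dbp had r of 0.653 with Nr1d2 (permutation adjusted p = 0.069) and 0.601 with Nr1d1 (permutation adjusted p = 0.072), and without the 2 arrays farthest from the median of Dbp these were 0.313 and 0.463. Bmal1 had r of −0.594 with Nr1d1 (permutation adjusted p = 0.072), −0.522 with Nr1d2 (permutation adjusted p = 0.121) and 0.551 with Per2 (permutation adjusted p = 0.119). Without its 2 farthest arrays these were −0.355, −0.267 and 0.359. Per2 and Bhlhe40 had r of −0.519 (permutation adjusted p = 0.121). Bhlhe41 had no value beyond 0.323 in size with any of the others. In all, 18 of the 21 pairs had the same sign on both days.

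**Figure D4:**
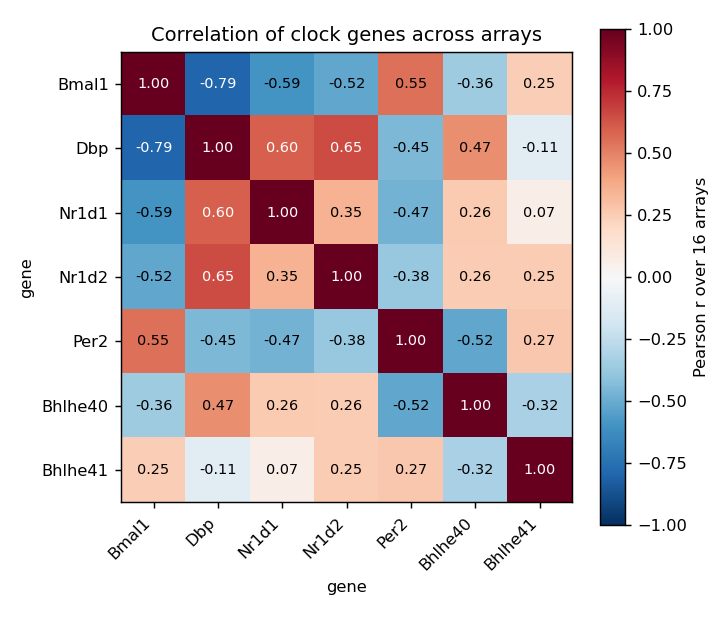
Pearson r between the 7 clock genes over 16 arrays, from −1 (blue) to 1 (red). Dbp, Nr1d1 and Nr1d2 have positive values with each other and negative ones with Bmal1, and the largest is that of Dbp with Bmal1.

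The arrays also differed in fat transcripts. Fitted beside age, Bmal1, Dbp and Per2 differed with them. Bhlhe40 did so only without regard to age and hybridisation day. A fat score was the mean log2(signal + 16) of 31 genes, those of the adipocyte and brown fat marker lists bright enough to be tested. It averaged 12.54 ± 0.51 in rats of 3 months and 12.66 ± 0.74 in those of 6 months. The average was 11.44 ± 1.63 in those of 15 months and 10.98 ± 0.64 in those of 28 months. At 15 months it was 13.00 and 12.70 on replicates 1 and 2, and 10.15 and 9.92 on replicates 3 and 4, the pair with high Bmal1 and low Dbp. The summed signal of the 23 adipocyte genes ran from 140850 to 339963 at 3 months, 131191 to 435686 at 6 months, 41681 to 340258 at 15 months and 53888 to 133717 at 28 months. That of the 13 smooth muscle genes ran from 198349 to 330492, 178455 to 275774, 181074 to 440335 and 298261 to 367820 at these ages. Ucp1 and Fabp4, a fatty acid carrier of fat cells, had signals of at least 4128 and 3833 on every array, so no defining fat marker of these was at 0 on any array.

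Fitted in limma beside the 4 age means, the score passed for 5 of the 10 clock probe sets, where 37.4% of all probe sets passed. Dbp was higher by 0.81 log2 units per unit of the score (SE 0.12, limma adjusted p = 8.9e-05), and by 0.65 on its dimmer probe set (limma adjusted p = 0.004). Bmal1 was lower by that measure, at −0.58 (SE 0.17, limma adjusted p = 0.016) and −0.66 on its dimmer probe set, and Per2 was at −0.42 (SE 0.12, limma adjusted p = 0.013). Nr1d1, Nr1d2, Bhlhe40 and Bhlhe41 had values of 0.12, 0.19, 0.21 and −0.06 and did not pass. Without regard to age, Bhlhe40 had a Pearson r of 0.613 with the score over all arrays (permutation adjusted p = 0.023 over 7 genes). That of Per2 was −0.561 (permutation adjusted p = 0.042), with −0.827 on day 1 and −0.084 on day 2. Dbp and Bmal1 had r of 0.839 and −0.712, and Nr1d1, Nr1d2 and Bhlhe41 did not pass by this measure. These p were adjusted over the 7 genes alone. The share of all probe sets that would pass by this measure was not computed. With the hybridisation run as a replicate block 2 of the 10 passed, where 11.2% of all probe sets did, and Bmal1 and Per2 were then at −0.51 (limma adjusted p = 0.306) and −0.39 (limma adjusted p = 0.302). With hybridisation day in the fit 2 of the 10 passed, the brighter probe set of Dbp and the dimmer one of Bmal1, where 19.1% of all probe sets did. The brighter probe set of Bmal1 was then at −0.47 (limma adjusted p = 0.213) and Per2 at −0.41 (limma adjusted p = 0.126). The dimmer probe set of Dbp was at 0.55 (limma adjusted p = 0.0995) and Bhlhe40 at −0.009 (limma adjusted p = 0.973). All of these were short of the threshold. Without a term for run or day, Per2 did not pass once replicate 1 (−0.37, limma adjusted p = 0.070) or replicate 4 (−0.32, limma adjusted p = 0.095) of the 15-month rats was left out. Within day 1 alone the scores were 13.00 and 12.62 at 3 months and 13.09 and 13.31 at 6 months. They were 13.00 and 12.70 at 15 months and 11.10 and 11.21 at 28 months. Beside the age means, Dbp was at −0.53 on day 1 (limma adjusted p = 0.908) and at 0.72 on day 2 (limma adjusted p = 0.241). The value for day 1 rests on the small gaps in score between arrays of the same age. Without regard to age, Dbp had a Pearson r of 0.728 with the score on day 1 and 0.844 on day 2.

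With both the age means and the fat score removed, the r of Dbp with Bmal1 was −0.573 (permutation adjusted p = 0.185). Beyond this value, the part of fat transcripts in the relation of Dbp to Bmal1 was not tested. RNA quality stood apart on replicate 4 at 15 months and replicate 4 at 28 months, where the beta-actin ratio (3′ over 5′ signal) was 3.20 and 3.82, against 1.24 to 1.77 on the others. Without these arrays r was −0.762 (permutation adjusted p = 0.155). Their fat scores, 9.92 and 10.07, were the lowest of all arrays.

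**Figure D5:**
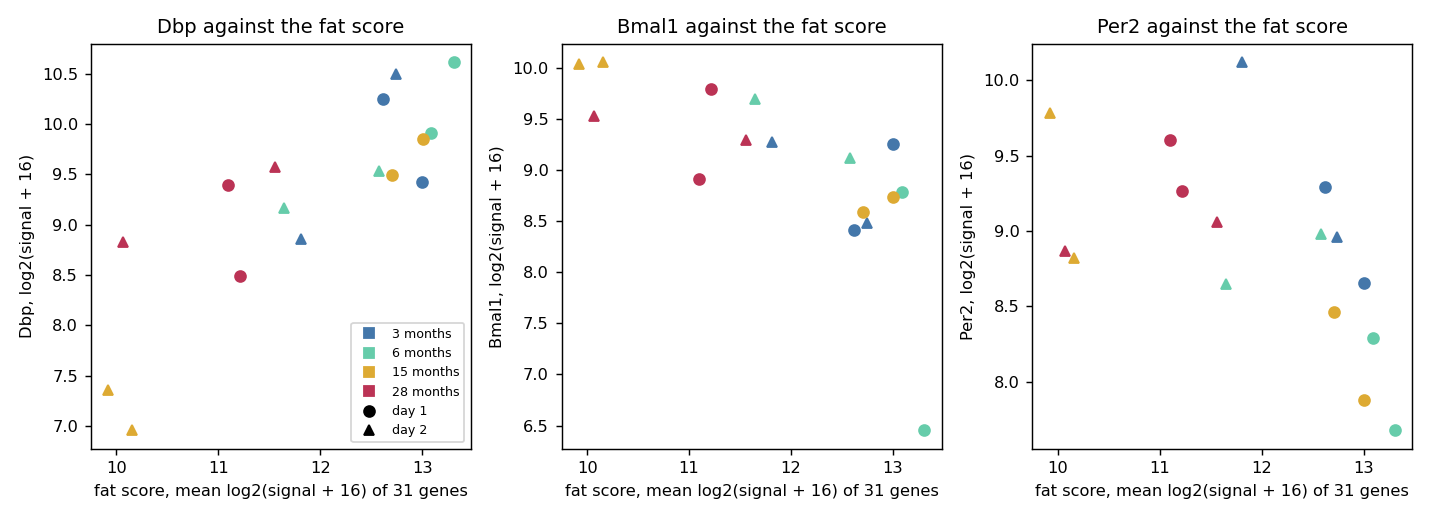
Dbp, Bmal1 and Per2 as log2(signal + 16) against the fat score, the mean log2(signal + 16) of 31 fat marker genes, on 16 arrays, with colours for age and circles and triangles for hybridisation days 1 and 2. Dbp is lowest and Bmal1 highest on the 15-month arrays with scores of 10.15 and 9.92.

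Hybridisation day, fitted beside age, passed for 2 of the 10 clock probe sets, where 14.5% of all probe sets passed. Bhlhe40 was lower on day 2 than on day 1 (log2 difference −0.52, SE 0.17, limma adjusted p = 0.049), and at all 4 ages, by 0.62, 0.59, 0.54 and 0.33 from the youngest to the oldest. The dimmer probe set of Bmal1 was higher on day 2 (log2 difference 0.88, SE 0.24, limma adjusted p = 0.030), while its brighter one did not pass (0.82, limma adjusted p = 0.103). These calls were not stable. Leaving out a single array took the count to 0 for every 15-month array, for replicates 1 and 4 of the 3-month rats and for replicates 1, 2 and 4 of the 6-month rats. It was 1 after leaving out replicate 3 of the 6-month rats or replicate 1, 3 or 4 of the 28-month rats. With the fat score in the fit, 0 of 10 clock probe sets and 0% of all probe sets passed for day.

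Other genes of the clock were described from a list of 34, of which 13 were on the array and 11 bright enough to be tested. They include Tef and Hlf, close relatives of Dbp that act on the same D-boxes, and enzymes that modify clock proteins. None of the 11 passed in any comparison of ages, in the F test or for the slope (limma, 0 at an unadjusted p under 0.05 at 28 against 3 months). At 28 against 3 months 4 were higher and 7 lower, with a median log2 change of −0.11, beside 1770 higher and 1372 lower of all 3142 genes and a median of 0.08. The 4 with the smallest p were Csnk1d, a kinase of PER proteins (log2 change −0.21, limma adjusted p = 0.473), Hlf (0.34, limma adjusted p = 0.622), Gsk3b, a kinase of clock proteins (−0.20, limma adjusted p = 0.625), and Prkaa2, a subunit of the energy sensor AMPK (0.39, limma adjusted p = 0.632). A second probe set of Csnk1d had the opposite sign, at 0.31. Tef and Hlf did not share the pattern of Dbp. Their r with Dbp over 16 arrays was −0.15 and −0.04, and that with Bmal1 0.21 and 0.12, given as a description.

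Of a list of 38 genes known to follow the clock in other tissues, 23 were on the array and 19 bright enough to be tested. At 28 against 3 months 8 of the 19 were higher and 11 lower, with a median log2 change of −0.19. One passed, Slc6a6, the taurine transporter, which rose by 1.14 (SE 0.22, limma adjusted p = 0.020). With the replicate block 5 passed, where 12.3% of all probe sets did. For the slope per month 5 passed, where 13.5% of all probe sets did, and they are named after their values were seen: Slc6a6 rose, and Por, the electron donor of cytochrome P450 enzymes, Pdk4, a kinase that holds back glucose oxidation, Gys2, glycogen synthase, and Vegfa, the vascular growth factor, fell. Por fell on its brightest probe set, while another was at 0.07 at 28 against 3 months. All 23 adipocyte genes and 8 brown fat genes bright enough to be tested were lower at 28 than at 3 months. Their median log2 changes were −1.40 and −1.82, and the part of fat transcripts in the values of the listed genes was not tested.

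Clock genes also respond to glucocorticoids. Of 26 listed glucocorticoid response genes, 16 were on the array and 13 bright enough to be tested. None passed at 28 against 3 months, with 5 higher, 8 lower and a median log2 change of −0.17. The smallest p were those of Cebpb, a transcription factor, at −1.38 (limma adjusted p = 0.061), and Glul, glutamine synthetase, at −1.41 (limma adjusted p = 0.189). Both passed with the replicate block (limma adjusted p = 0.006 and 0.029), where 12.3% of all probe sets did. For the slope 1 of the 13 passed, Cebpb, which fell by 0.053 log2 units per month (limma adjusted p = 0.0155), where 13.5% of all probe sets passed.

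The genes most like Dbp over the 16 arrays, by Pearson r of log2 values and as a description only, were RT1-DMb (r = 0.919), Glul, Plin1, Fabp4 and Acp5, of which Plin1 and Fabp4 are in the fat score. The genes most opposed to it were Pkia (r = −0.930), Grip2, Itpr1, Itga7 and Eef2k. These 10 genes had r of 0.894 or more in size with the fat score. The genes most like Bmal1 were Yipf3 (r = 0.923), Ssb, Gnao1, Cask and P3h4, and those most opposed Gpd2 (r = −0.852), Prkaca, Ndrg2, Fam210a and Slc25a10. Lox, which cross-links collagen and elastin, was the most like Per2 (r = 0.848), followed by Sult1a1 and Col5a1. For Nr1d1 these genes were Arl6ip6 (r = 0.763), Gpd2 and Nos2, and for Nr1d2 Zdhhc3 (r = 0.807), Casp1 and RT1-Ba. They were Tgoln2 (r = 0.831), Gnptg and Adipor2 for Bhlhe40, and Slc22a18 (r = 0.838), LOC102549726 and Grn for Bhlhe41. The arrays behind each value share their tissue content and hybridisation day.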

How the data were processed

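Expression was measured in 16 rat aortas, 1 array each. The authors deposited a table of intensity values, 1 linear signal per probe set and array, made with MAS5, per the submitters' processing notes, which name no version. They were already scaled, with trimmed means of 1001.7 to 1002.0 (2% off each end) and medians of 223.5 to 267.7, and none was rescaled. Detection calls were not used. Precision is limited by the number of arrays. From the authors' array records came animal, chip lot, station, hybridisation day and a note on cRNA on 4 arrays. The note was on replicates 2 and 4 at 15 months and replicates 3 and 4 at 28 months, and on none of the younger rats. It is thus partly tied to age.

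Values were analysed as log2(signal + 16), so changes of dim probe sets are understated. Of 8799 probe sets, 59 controls and those with a mean below the 40th percentile (159.1) were left out, which left 5251. Names come from the platform annotation, in which 7006 probe sets had 1 symbol, 308 several and 1426 none, and 6985 were found in the RefSeq gene table. All arrays were fitted with limma 3.58.1 in R 4.3.3 (lmFit, eBayes with a mean trend), with 1 mean per age, and p-values were adjusted by Benjamini-Hochberg over all 5251. Tests were 2-sided. The code was tested on simulated data. Correlations used 100000 permutations, or exact ones within a day.

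By the array records, arrays with the same replicate number, 1 per age, shared chip lot, station (a field of the records) and hybridisation day. Such a set is called a hybridisation run here. Runs 1 and 2 were on day 1, with different stations and chip lots. Runs 3 and 4 were on day 2, with different stations and the same chip lot. Arrays are thus paired by run. Deviations from age means had a median r of 0.166 over 24 same-numbered pairs and −0.030 over others. The fit without the run is reported as the main one, and it takes no account of this pairing. At 28 against 3 months 69 of all probe sets passed in it, against 645 with the run as a replicate block.

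The clock genes, the lists and the fat score were chosen with earlier results of these data known. All clock genes were named; of the other clock genes those past the threshold or the 4 with the smallest p at 28 against 3 months, of the clock output and glucocorticoid lists up to 4 past the threshold or the 2 with the smallest p, and of like genes the 5 highest and lowest r for Dbp and Bmal1 and the 3 highest for the others. Alternatives covered pseudocount, filter, normalization, block, day, lot, array weights, fat score, RNA quality, cRNA note and single arrays left out.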

Additional observations from a re-analysis of the deposited data

Results flagged for a closer look

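Of 40 groups of 4 arrays examined, 10 probe sets at 4 ages, 1 had an array whose gap to its nearest neighbour was large for the range of the group. Replicate 1 at 28 months had a log2(signal + 16) of 9.157 for Nr1d2, a signal of 555, while the other arrays of that age had signals of 364 to 384. Chance flags about 1 in 20 groups by this measure. Without that array the log2 change of Nr1d2 at 28 against 3 months remained short of the threshold, as it did in every other setting in which it was computed (limma adjusted p of 0.242 to 0.877).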

How the results depend on the processing

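In all, 664 alternative values were computed for 21 results under 39 settings. Of these, 580 kept their direction and their side of the threshold or stayed within 1.5 times the count. Among the 580 is the correlation of Dbp with Bmal1 with the age and run means removed, whose adjusted p is not read as passing above. The values outside the 580 are given here as far as they bear on a count or a direction. The cause was not tested for any of them. The settings with the cRNA note or without the low-fat pair, the correlation without the arrays of high actin ratio, and all settings of the fat score and day terms were added after the data were seen.

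The count of all probe sets past the threshold at 28 against 3 months, 69 as reported, was 645 with the replicate block, 476 with day and 329 with lot as a term, 754 with array weights, 544 from the arrays of the 2 ages only, 489 without the low-fat pair at 15 months, 44 without the pair of high actin ratio, 42 with the fat score, 21 with the cRNA note, 5 with the fat score beside the replicate block, 690 on day 1 and 0 on day 2 (limma, 2 arrays per age). Leaving out 1 array gave 10 to 156. Of the 28-month arrays, omitting replicate 1 gave 10, replicate 2 or 3 gave 35 and replicate 4 gave 45. Of the 3-month arrays, omitting replicates 1, 2 and 3 gave 11, 26 and 37. Omitting the fourth replicate of 6 months gave 106 and the first of 15 months 156. Of the 10 clock probe sets, 1 passed at 28 against 3 months, in the F test and for the slope with array weights, which took 14.4%, 14% and 30.8% of all probe sets, 1 for the slope with the replicate block, and 0 to 1 for the slope with 1 array left out (1 without replicate 4 at 6 months). The replicate block changed no other call of a clock gene by age.

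For the fat score, 5 of 10 as reported, the count was 3 with a filter at the 60th percentile or without the low-fat pair, 2 with the replicate block or with day as a term, 0 on each day alone and 4 to 6 with 1 array left out. For day, 2 of 10 as reported, it was 1 without a filter or with quantile normalization, 0 with a filter at the 60th percentile, without the low-fat pair or without the arrays with a high actin ratio, and 0 to 3 with 1 array left out. The correlation of Dbp with Bmal1 was −0.573 with age and fat score removed, −0.850 on day 1 and −0.762 without the arrays with a high actin ratio, with adjusted p above 0.05, and −0.891 to −0.770 with 1 array left out.

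Directions at 28 against 3 months turned for Per2 with array weights (0.11), on day 1 (0.46) and without the arrays with a high actin ratio (0.053), with −0.26 to 0.23 when 1 array was left out. With the fat score they turned for Bmal1 (−0.37, and −0.27 with the block), Dbp (0.58 and 0.90), Nr1d1 (0.10 and 0.19) and Bhlhe40 (0.044). That of Nr1d1 also turned on day 2 (0.18), with −0.20 to 0.12 when 1 array was left out. Dbp per unit of fat score, fitted beside the age means, was −0.53 on day 1, where its Pearson r with the score was 0.728. None of these values at 28 against 3 months passed the threshold. Signals near the pseudocount of 16 are compressed, and the lowest clock signal was 59.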
